A study of Mus musculus with 2 samples.

Results

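The p53 family and its target genes were examined in both sorted fractions of GIF-5. This mouse line of gastric epithelial cells has the genotype Runx3-/-p53-/-. The list held 35 genes: the family members Trp53, Trp63 and Trp73, the regulators of p53, and genes listed as p53 targets. Whether p53 switches on each of them in these cells was not tested. Non-control spots whose gene name in the files equals a listed name were found for 32 of them, as 110 spots of 56 probes among 43379 non-control spots of 41174 probes. Of these 32 genes 31, with 49 probes, were measurable enough to be tested, among 15267 tested genes. Trp63 was not. Dram1, Tigar and Aen lie on the array under older names and are described apart.

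GIF-5 cells grown in DMEM with bovine serum, with no other treatment named, were stained with an antibody against CD133, a membrane glycoprotein encoded by Prom1, and sorted into CD133-positive and CD133-negative cells. Both fractions carry the same deletions of Runx3 and p53, so no cells with intact p53 were measured here. Each of 2 Agilent arrays held RNA of both fractions, CD133-positive in Cy3 and CD133-negative in Cy5. A dye effect on a gene therefore cannot be told apart from the fraction. The labels call the arrays biological replicates and do not say whether cultures or sorts were separate, so p-values measure only the spread between these 2 arrays, which may be technical. GIF-5 is 1 cell line, and the fractions are mixtures defined by 1 surface marker, in which fewer cells expressing a gene and less RNA per cell cannot be told apart.

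p53 is a transcription factor that is stabilised by DNA damage and other stress. It binds DNA as a tetramer at paired copies of a short palindrome, the half-site, and switches on genes for cell cycle arrest, cell death and DNA repair. Mdm2 and Mdm4 hold it in check, and Mdm2 is itself a target, which closes a feedback loop. p63 and p73 bind the same kind of site, and many target genes also have basal expression that does not need p53.

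The promoter windows of the listed genes were searched for letters that match the p53 half-site. Sites outside these windows were not searched. RefSeq windows (GRCm38.p6, 250 bases before to 50 after a transcript start) were available for 24 of the 32 genes, with 32 windows. An exact half-site, meaning the 10-base p53 consensus with no mismatch, was present for 10 of the 24 genes (41.7%, against 9.55% of all genes) and in 31.2% of their windows (against 8.36% of all 32851 windows of this length). The consensus is its own reverse complement, so both strands were read at once. Paired half-sites, with a spacer of at most 13 bases and at most 2 mismatches in all, were found for 6 of the 24 genes (25.0%, against 4.71% of all genes) and in 18.8% of their windows (against 4.09% of all windows). These pairs can include the exact half-sites. The list was chosen for its link to p53, so shares above those of all genes are no independent result.

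The windows of 4 genes are printed as examples, and any link of their letters to the ratios was not tested. They include the arrest gene Cdkn1a, which differed most between the arrays, and Phlda3, which had the lowest ratio. The others are Ccng1 and Bax, classic targets with a pair. Capitals mark half-sites that are exact or belong to a pair. The Cdkn1a window belongs to 1 of its 2 RefSeq windows, at chr17:29090729-29091028 on the plus strand. It holds 2 exact half-sites, which start 73 and 51 bases before the transcript start and lie 12 bases apart. The second of them also forms the unspaced pair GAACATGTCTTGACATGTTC, with 1 mismatch. The Ccng1 window lies at chr11:40755237-40755536 on the minus strand, with the unspaced pair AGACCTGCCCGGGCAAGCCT, also with 1 mismatch. Bax lies at chr7:45466849-45467148 on the minus strand, and Phlda3 at chr1:135765835-135766134 on the plus strand. The letters of the exact half-site and of the pair are not in the Phlda3 window. The last bases of this window match the start of the half-site and are cut off by its end. A site there can therefore not be judged.
Cdkn1a: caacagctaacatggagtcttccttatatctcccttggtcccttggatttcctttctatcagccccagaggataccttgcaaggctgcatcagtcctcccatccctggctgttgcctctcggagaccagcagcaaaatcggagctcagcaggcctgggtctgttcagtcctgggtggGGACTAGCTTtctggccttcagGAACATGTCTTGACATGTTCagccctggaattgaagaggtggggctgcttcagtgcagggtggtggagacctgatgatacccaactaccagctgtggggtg
Ccng1: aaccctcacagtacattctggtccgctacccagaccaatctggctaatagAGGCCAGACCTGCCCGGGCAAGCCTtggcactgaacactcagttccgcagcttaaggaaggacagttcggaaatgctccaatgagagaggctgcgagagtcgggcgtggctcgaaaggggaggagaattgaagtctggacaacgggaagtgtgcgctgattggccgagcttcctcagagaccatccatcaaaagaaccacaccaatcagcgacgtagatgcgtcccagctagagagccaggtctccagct
Bax: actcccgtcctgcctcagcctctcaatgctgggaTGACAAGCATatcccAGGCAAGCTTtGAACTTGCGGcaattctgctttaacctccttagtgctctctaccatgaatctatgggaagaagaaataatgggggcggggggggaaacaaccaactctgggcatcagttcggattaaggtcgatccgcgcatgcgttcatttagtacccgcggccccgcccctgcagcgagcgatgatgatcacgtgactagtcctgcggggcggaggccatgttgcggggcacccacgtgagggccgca
Phlda3: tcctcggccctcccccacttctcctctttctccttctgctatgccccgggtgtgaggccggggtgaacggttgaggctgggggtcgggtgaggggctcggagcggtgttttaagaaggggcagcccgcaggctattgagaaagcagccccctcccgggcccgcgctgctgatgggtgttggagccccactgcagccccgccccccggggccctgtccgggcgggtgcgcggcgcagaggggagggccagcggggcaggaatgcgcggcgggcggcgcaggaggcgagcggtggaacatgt

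The exact half-sites of the other 7 genes are shown with 10 bases on each side, with the half-site in capitals and each on the strand of its gene.
Trp53: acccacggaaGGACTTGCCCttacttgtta
Mdm2: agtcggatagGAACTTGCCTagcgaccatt
Ppm1d: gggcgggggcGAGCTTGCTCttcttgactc
Gadd45a: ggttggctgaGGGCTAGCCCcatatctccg
Sesn1: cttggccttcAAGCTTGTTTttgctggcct
Ei24: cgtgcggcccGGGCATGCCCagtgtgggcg
Polk: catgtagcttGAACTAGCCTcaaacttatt
The genes that had an exact half-site and those that had none covered overlapping ratios. Mean log2 ratios, always given as CD133-positive relative to CD133-negative, ran from -1.09 to 0.62, with a median of 0.06, over the 10 genes with one, and from -2.16 to 0.68, with a median of -0.39, over the 14 without. A match describes these letters and not binding.

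The sorted marker checked the labels. Prom1 had a log2 ratio of 3.83 on array 1 and 3.73 on array 2, and was at least 11.96-fold higher in CD133-positive cells, since the CD133-negative channel was not well above background at its probe. This bound sets the mean normalised level of the bright fraction against the lowest level that the scanner program flagged as well above background, or the dim probe's own level where that is higher. Of the gastric epithelial markers, Krt8, Krt18, Krt19 and Cdh1 were well above background in both fractions on both arrays, while Epcam was so only in CD133-negative cells on 1 array. Of 15 gastric epithelial markers tested, 11 had ratios above 0 on both arrays and 3 below 0 on both. Gkn2, Tff1 and Muc1 rose in CD133-positive cells, with mean log2 ratios of 5.60, 4.40 and 1.78 (limma adjusted p of 0.0096, 0.0096 and 0.032). The keratins Krt8, Krt18 and Krt19 were the 3 below 0, with mean log2 ratios of -0.78, -0.54 and -0.79, and did not pass. Among markers of other cell types, the blood cell genes Ptprc and Itgam, the fibroblast genes Pdgfra, Pdgfrb, Lum and Dcn, and the endothelial genes Pecam1, Kdr and Tek were well above background on no array. Of the endothelial list, Vwf rose in CD133-positive cells (mean log2 ratio 3.75, limma adjusted p = 0.012). Cdh5 was at least 5.81-fold higher there at its brighter probe. Its CD133-negative signal was not well above background on either array, so no p-value is given for it. The summed intensity of the 2 was 1708 and 2466 in CD133-positive cells on arrays 1 and 2, against 172 and 191 in CD133-negative cells. Runx3, the other deleted gene, gave signal flagged well above background in both fractions at 1 of its 2 probes, with ratios of 0.15 and -0.04, and in neither fraction at the other, and the deleted part is not given in the sources used here. None of 5 fibroblast and none of 5 blood cell markers tested passed in limma, and 1 of each list had an unadjusted p under 0.05. Their part in the ratios below was not tested.

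None of the 31 tested genes of the p53 list passed the test over all genes (limma with Benjamini-Hochberg adjustment at 0.05, smallest adjusted p = 0.066), against 1.68% of all tested genes. Among all genes 1.40% were called higher and 0.275% lower in CD133-positive cells. Before adjustment, 13 of the 31 had p under 0.05, or 41.9% against 27.9% of all genes. By size alone, Phlda3 was past 2-fold on each array with the same sign, which makes 3.23% of the 31 against 4.62% of all genes. Of all genes 2.50% were so on the higher side and 2.12% on the lower. The ratio was above 0 on both arrays for 10 genes (32.3% against 32.6%), below 0 on both for 13 (41.9% against 39.7%), and opposite on the 2 arrays for 8 (25.8% against 27.8%). It was over 0.5 in size, with 1 sign on both arrays, for 10 genes (32.3% against 25.7%), and lower on array 2 than on array 1 for 21 (67.7% against 56.7%). The median over the 31 genes was -0.10, against -0.03 over all tested genes, with 0.08 on array 1 and -0.12 on array 2. A share near that of all genes is no result about the list.

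**Figure D1:**
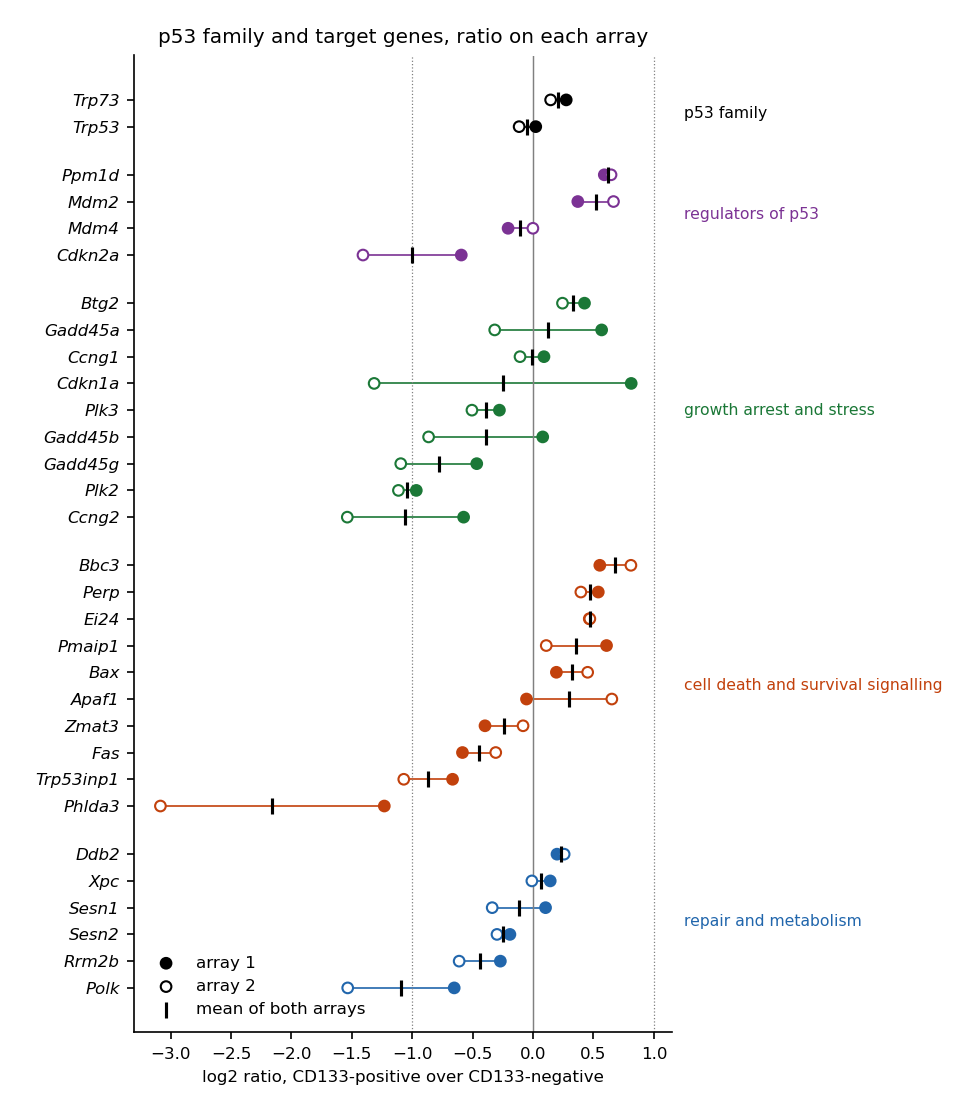
Log2 ratio of CD133-positive over CD133-negative cells on array 1 (filled points), array 2 (open points) and their mean (bars) for the 31 tested genes, grouped by role, with dotted lines at 2-fold. Phlda3 lies beyond 2-fold on both arrays, and Cdkn1a lies on opposite sides of 0 on the 2 arrays.

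The scaling decides where 0 lies. Loess normalisation centres the genes of each intensity on 0, whereas centring the arrays on the median of all probes put the median of all tested genes at -0.74. The count of 0 called p53 genes did not hold under it: 23 of the 31 were then called, all lower in CD133-positive cells, while 10107 of all 15267 genes were called in either direction. With centring over the tested genes 7 were called, and Plk2 alone with scaling between arrays. Under centring over all probes 13 of the 31 genes changed sign and all lay below 0, so a ratio above 0 means here that a gene was high relative to most genes of like intensity. After a shift that restores the all-gene median, 3 of the 31 changed sign under it. The split of called genes moved as well: 214 of 256 were higher with loess, 484 of 10107 with centring over all probes, 2440 of 4013 with centring over the tested genes, 368 of 623 after scaling between arrays, 275 of 385 without background correction and 404 of 562 with an offset of 16.

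Trp53 itself, the gene labelled as deleted, gave signal in both fractions. Its brighter probe had normalised log2 intensities of 9.09 and 8.99 in CD133-positive cells and 9.07 and 9.10 in CD133-negative cells, on arrays 1 and 2. The lowest intensity that was flagged well above background ran from 5.78 to 6.07 over the 4 channels. The levels of the fractions overlapped, with a mean log2 ratio of -0.05 ± 0.14 (SE, n = 2), a 95% interval of -0.44 to 0.35 and a limma adjusted p = 0.88. A second probe, spotted 10 times on each array, had levels of 7.53 and 7.68 in CD133-positive and 7.65 and 7.70 in CD133-negative cells, and was also well above background in every channel. The files place the probes at chr11:69662031-69662089 and chr11:69671206-69671265, without naming a build, so the second lies 9.18 kb further along the plus strand, on which RefSeq has the gene. Which part of Trp53 was deleted is not given in the sources used here, so these probes do not check the deletion, and signal at a probe says nothing about protein.

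Of the relatives of p53, Trp63 was at background and Trp73 above it at 1 of its 2 probes. Trp63, a master gene of stratified epithelia, had 3 probes, none of them well above background in any channel, with levels between 5.80 and 6.02. Trp73, which can switch on many p53 targets, had 1 probe at background and 1 probe with levels of 7.21 and 7.01 in CD133-positive and 6.94 and 6.86 in CD133-negative cells. The levels of the second did not overlap between the fractions, but the log2 ratio of 0.21 ± 0.14 (SE, n = 2) did not pass (limma adjusted p = 0.40). How often levels do not overlap among all tested genes was not counted. A lack of overlap, here and below, therefore only describes 2 levels against 2 and is no result about a gene.

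Among the regulators, Mdm2, the ubiquitin ligase that degrades p53, had levels of 10.30 and 10.54 in CD133-positive and 9.93 and 9.88 in CD133-negative cells. It was higher in CD133-positive cells on both arrays without passing, at 0.52 ± 0.16 (SE, n = 2; limma adjusted p = 0.14). A second Mdm2 probe, with 10 spots an array, gave 0.07 and 0.27. Ppm1d, the phosphatase Wip1 that switches off damage signalling, had levels of 8.97 and 9.05 against 8.38 and 8.40, with no overlap, and log2 ratios of 0.59 and 0.65 (limma adjusted p = 0.10). Another tested Ppm1d probe gave 0.54 and 0.95. Mdm4, the partner of Mdm2, had 5 tested probes with mean ratios from -0.18 to 0.15. Among 13 genes with several tested probes, only Mdm4 had probes that differed in the sign of the mean ratio.

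Cdkn2a encodes both p16, an inhibitor of cyclin D kinases, and Arf, which blocks Mdm2, and its probe is assigned to transcripts of both. Its levels were 11.27 and 10.69 in CD133-positive against 11.86 and 12.10 in CD133-negative cells, with no overlap. The log2 ratios were -0.59 and -1.41, which did not pass (mean -1.0 ± 0.25, SE, n = 2; limma adjusted p = 0.11). The 10 spots of the probe had an SD of 0.019 on array 1 and 0.022 on array 2, far below the gap between the arrays.

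**Figure D2:**
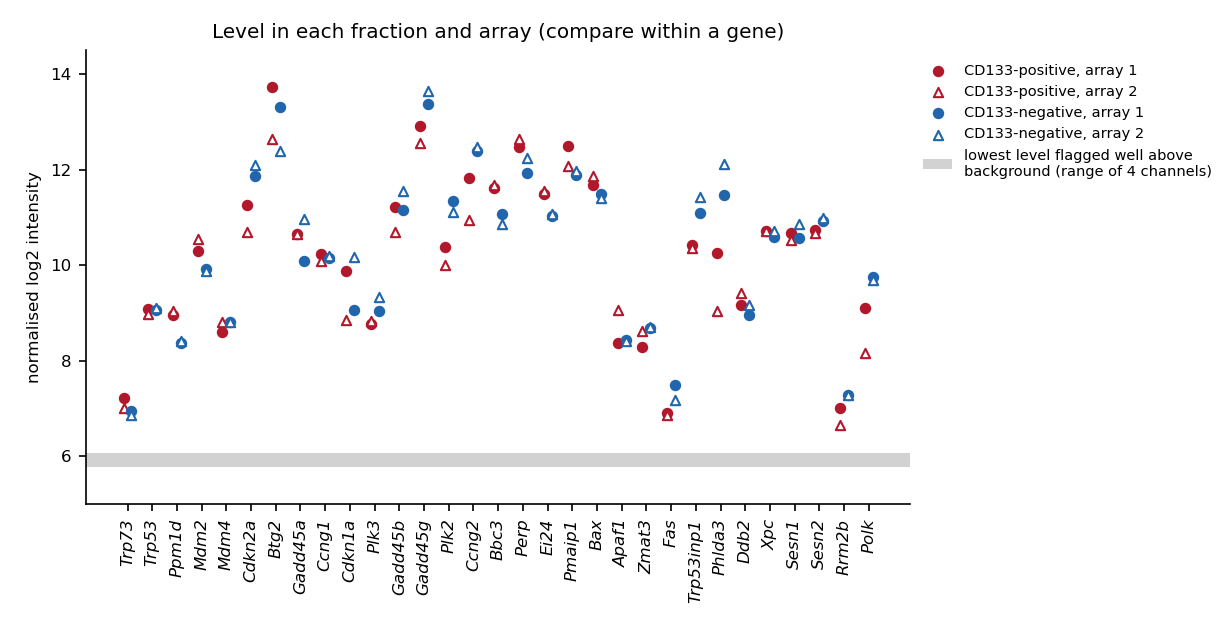
Normalised log2 intensity of the 31 tested genes in CD133-positive (red) and CD133-negative cells (blue) on array 1 (circles) and array 2 (triangles), with the lowest intensity flagged well above background shaded. Levels compare within a gene and not between genes, since probes differ in brightness. All points lie above the shaded band, as for Trp53 at 8.99 to 9.10, and those of Btg2 shift between arrays in both fractions.

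Of the role groups, the growth arrest and stress genes had the largest median gap between the arrays, 0.63 on the log2 scale. Cdkn1a, which encodes the cyclin-dependent kinase inhibitor p21, had levels of 9.87 in CD133-positive and 9.06 in CD133-negative cells on array 1, and of 8.85 and 10.16 on array 2. It was thus high in CD133-positive cells on array 1 and low in them on array 2, with log2 ratios of 0.81 and -1.32. The 9 spots used of its probe had an SD of 0.025 on array 1 and 0.043 on array 2 and no overlap between the arrays. The arrays differed by 2.13 on the log2 scale, and 0.321% of all tested genes differed by at least as much. The mean of -0.25 ± 0.56 (SE, n = 2) has a 95% interval of -1.82 to 1.32, so the data set no direction for Cdkn1a (limma adjusted p = 0.83).

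**Figure D3:**
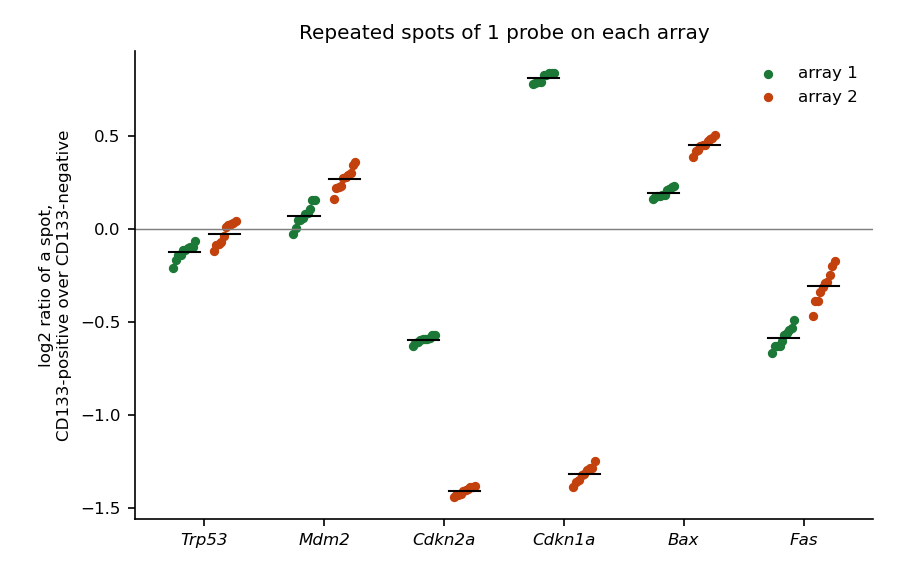
Log2 ratio of single spots for the 6 probes that were spotted repeatedly, with 9 or 10 spots on array 1 (green) and array 2 (orange) and their mean as a line. For Trp53 and Mdm2 this is the dimmer of the tested probes. The SD over spots ran from 0.019 to 0.090, and the Cdkn1a spots lie near 0.81 on array 1 and near -1.32 on array 2.

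Gadd45a and Gadd45b, stress-induced partners of p38 signalling and PCNA, also lay on opposite sides of 0 (chosen for mention after their values were seen). For Gadd45b this held only at its brighter probe. Gadd45a was at 0.57 on array 1 and -0.32 on array 2, and Gadd45b at 0.08 and -0.86. Array differences at least as large occurred in 6.70% and 5.67% of all tested genes. A second Gadd45b probe gave -0.05 and -0.78, below 0 on both arrays. Gadd45g, the third of this family, was below 0 on both arrays, at -0.47 and -1.10. Its levels of 12.91 and 12.56 in CD133-positive cells did not overlap those of 13.38 and 13.66 in CD133-negative cells, and it did not pass (limma adjusted p = 0.12).

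Plk2, a stress-activated polo-like kinase that is a direct target of p53, came nearest to passing. Its levels were 10.38 and 10.00 in CD133-positive against 11.35 and 11.11 in CD133-negative cells. The fractions did not overlap, and the log2 ratios of -0.97 and -1.11 gave a mean of -1.04 ± 0.14 (SE, n = 2), or 2.06-fold higher in CD133-negative cells, with a limma adjusted p = 0.066. It passed under 5 of 14 alternative settings, among them an intensity trend in the prior variance (limma adjusted p = 0.044), with adjusted p from 0.0072 to 0.50 over the alternatives. Plk3, the related kinase, was at -0.28 and -0.51.

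Of the cyclin G genes, Ccng2, a cyclin linked to arrest and repressed by growth signalling, had levels of 11.82 and 10.94 in CD133-positive against 12.40 and 12.48 in CD133-negative cells. The levels did not overlap, and the ratios of -0.57 and -1.54 did not pass (limma adjusted p = 0.12). Ccng1, whose promoter pair is printed above, had ratios of 0.09 and -0.11 at its brighter probe, with levels within 10.08 to 10.24 in all 4 channels. A second Ccng1 probe gave -0.47 and -0.73, so the probes disagree on size and, on array 1, on sign. Btg2, an antiproliferative gene, had similar ratios on both arrays (0.43 and 0.24), while its level differed between the arrays (array 2 minus array 1) by -1.10 in CD133-positive and by -0.92 in CD133-negative cells, at all 3 probes in the same direction. A shift of the mean level this large between arrays was found in 0.635% of all tested genes (Btg2 was chosen for this after its values were seen).

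The cell death and survival genes lay on both sides of 0. Bbc3, which encodes the BH3-only protein Puma, had levels of 11.63 and 11.67 in CD133-positive and 11.07 and 10.86 in CD133-negative cells. The fractions did not overlap, with ratios of 0.55 and 0.81 and a mean of 0.68 ± 0.15 (SE, n = 2), which did not pass (limma adjusted p = 0.10). Bax, the pore-forming effector, had 10 spots and ratios of 0.19 and 0.45. Pmaip1 (Noxa), Perp (a desmosomal tetraspan protein) and Ei24 (an endoplasmic reticulum protein), all above 0 on both arrays, had mean ratios of 0.36 to 0.47. For Ei24 the arrays gave 0.47 and 0.47. Apaf1, the apoptosome scaffold, was at -0.05 and 0.65.

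The lowest ratio of all was that of Phlda3, a pleckstrin homology protein that competes with Akt for membrane lipids and so restrains survival signalling. Its levels were 10.25 and 9.04 in CD133-positive cells against 11.48 and 12.13 in CD133-negative cells. The fractions did not overlap, and CD133-negative cells were 4.46-fold higher on the mean of ratios of -1.23 and -3.08. The arrays disagreed on the size, and 0.662% of all tested genes differed between arrays by at least as much. The mean of -2.16 ± 0.49 (SE, n = 2) did not pass (limma adjusted p = 0.10, 95% interval -3.54 to -0.78), and 0.341% of tested genes had a mean as low.

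Trp53inp1, a stress protein of autophagy and cell death, had levels of 10.43 and 10.36 in CD133-positive against 11.09 and 11.43 in CD133-negative cells. They did not overlap, and its ratios of -0.67 and -1.07 did not pass (limma adjusted p = 0.088). Its second probe gave -0.49 and -1.08. Fas, the death receptor, was at -0.58 and -0.31, and Zmat3, an RNA-binding target of p53, at -0.40 and -0.08.

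**Figure D4:**
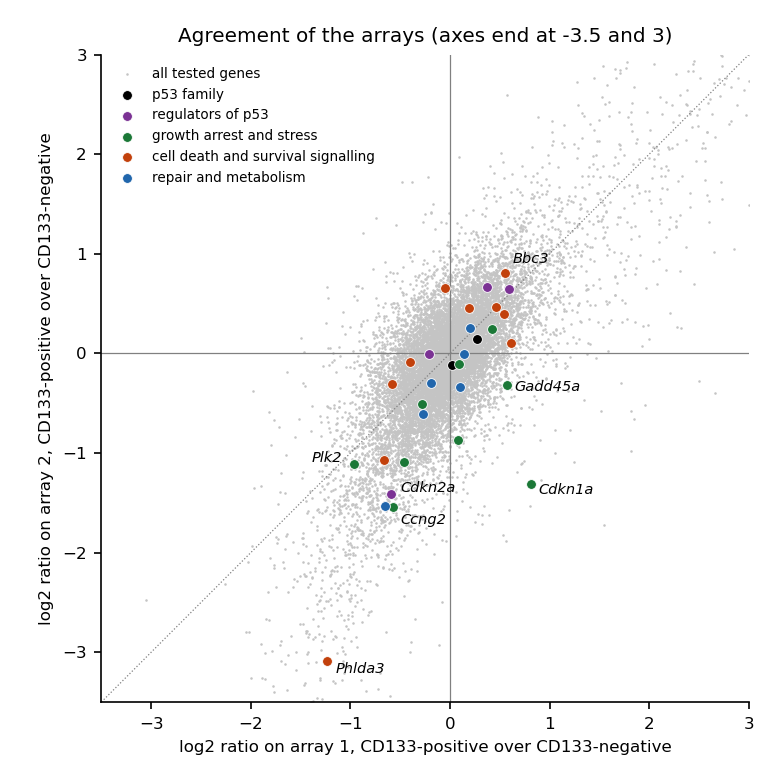
Log2 ratio on array 2 against array 1 for all 15267 tested genes (grey, those within the axes) and for the 31 genes of the p53 list, coloured by role, with the line of equality dotted. Cdkn1a and Gadd45a lie at positive values on array 1 and negative values on array 2, and Phlda3 lies at -1.23 and -3.08.

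Among the repair and metabolism genes, Polk, a translesion DNA polymerase, had the lowest ratio, with levels of 9.10 and 8.16 in CD133-positive against 9.75 and 9.69 in CD133-negative cells. The levels did not overlap, and the ratios of -0.65 and -1.53 did not pass (limma adjusted p = 0.11). At its second probe the CD133-positive signal did not pass the background flag on either array, and the other fraction was dim too, so no ratio is given for it. The damage recognition genes Ddb2 and Xpc had mean ratios of 0.23 and 0.07, and the sestrins Sesn1 and Sesn2, which restrain mTORC1, of -0.12 and -0.25. Rrm2b, the p53-inducible ribonucleotide reductase subunit, was at -0.27 and -0.61. It was dim, with levels of 7.01 and 6.66 in CD133-positive and 7.28 and 7.28 in CD133-negative cells. After a shift to the same all-gene median, its mean ratio ran from -0.86 to -0.11 over 14 alternative settings.

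The 3 listed genes found under older names were tested in the same fit, and none passed. Aen, an apoptosis-enhancing nuclease (Isg20l1 in the files), has 2 probes that the files place on chromosome 7, at 0.19 and 0.53 and at 0.02 and 0.29. The probe that stood for it in the fit, at 0.24 and 0.80, bears the same name but is placed on chromosome 4, so its value may not be that of Aen. Tigar, a regulator of glycolysis (9630033F20Rik), was at 0.69 and 0.09. Dram1, a lysosomal protein of autophagy (1200002N14Rik), was at -0.46 on array 1. On array 2 its CD133-positive signal was not well above background, so no ratio is given there.

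By role, the median of the mean ratios was 0.21 over the 4 regulators, -0.39 over the 9 growth arrest and stress genes, 0.31 over the 10 cell death and survival genes and -0.18 over the 6 repair and metabolism genes. These medians describe few genes with wide ranges, from -2.16 to 0.68 in the cell death group, and their differences were not tested. The median gap between the arrays was 0.28 over the 31 genes and 0.25 over all tested genes.

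Other genes of the pathway were taken from 5 lists. Of 15 damage kinases and sensors tested, none passed in limma, with 2 higher and 4 lower at an unadjusted p under 0.05. Over all 15267 genes these counts were 1815 and 2439, and the same holds as background for the lists that follow. H2ax, the histone variant phosphorylated at breaks, was at 0.91 and 1.69, and Rad9a, of the checkpoint clamp, at -0.55 and -0.84. Of 21 cofactors and modifiers none passed in limma (3 higher and 1 lower before adjustment), with the ubiquitin ligase Cop1 at 0.56 and 0.82. The medians of these lists were -0.07 and -0.02.

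Of 31 further described p53 targets none passed in limma (5 higher and 5 lower before adjustment), and their median was -0.05. Thbs1, an angiogenesis inhibitor (-1.58 and -2.35), was at least 2-fold lower in CD133-positive cells on both arrays without passing (limma adjusted p = 0.060). Among 36 genes of the cell cycle arm, on which p21 acts, none passed in limma (4 higher and 4 lower before adjustment), 12 were above 0 and 12 below 0 on both arrays, and the median was 0.05. Cyclin D2 (Ccnd2, 1.26 and 1.08) and cyclin D1 (Ccnd1, -0.68 and -1.22) lay on opposite sides of 0.

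The 23 tested genes of the apoptosis machinery had a median of -0.13. In limma 1 of them passed, on the higher side, where 1.40% of all tested genes were called. It is among the genes not reported here. Before adjustment 4 were higher and 3 lower. The BH3-only gene Bmf was at -0.53 and -1.65, Birc3 at -0.80 and -0.56, and Cycs, cytochrome c, at 0.46 and 0.81.

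**Figure D5:**
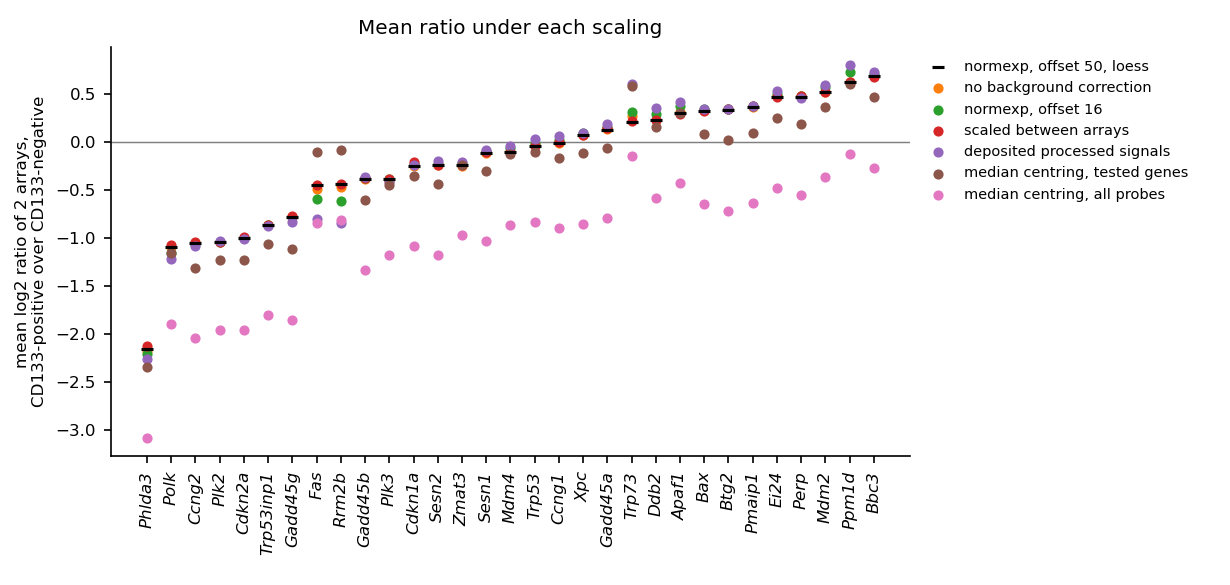
Mean log2 ratio of both arrays for the 31 genes, in order of the ratio used in the text (bars), under 6 other scalings (points). Phlda3 is lowest under each scaling shown, and median centring over all probes moves all genes down, so that those above 0 lie below it.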

How the data were processed

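RNA of the sorted fractions was hybridised to 2 two-colour Agilent arrays with 45018 spots each. Per the file headers, Feature Extraction 9.5.3.1 read each spot's mean and local background intensity, which the authors deposited without normalisation. The processed intensity beside them had been background-subtracted and dye-normalised, per the file headers. A log10 ratio of red over green, CD133-negative over CD133-positive, was also deposited, and the value table repeats it. The p-value deposited for each spot was not used. No spot was saturated.

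Spot means were corrected by normexp (offset 50) and normalised by loess in limma 3.58.1 (R 4.3.3), with control spots at weight 0. Spots with a non-uniformity or population outlier flag were dropped, which left 9 Cdkn1a spots, and the rest averaged per probe. Testing needed signal well above background in either channel on both arrays. The brightest tested probe stood for a gene. Names came from RefSeq (GRCm38.p6 table) by accession for 22902 probes, by symbol for 6652 and by synonym for 3109, and 8455 kept the name in the files. The mean ratio was tested with limma and empirical Bayes moderation, two-sided (1 residual and 2.87 prior degrees of freedom), adjusted over all genes, and the fit was tested on simulated data. Standard errors and 95% intervals are moderated ones and not adjusted. Levels are per channel after loess and quantile normalisation of average intensity. The number of arrays limits the precision.

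Alternatives changed background correction, scaling, variance model, filter and probe, or left out an array. By rule, the p53 family, Mdm2, Cdkn1a, Cdkn2a and genes called or past 2-fold were given for each array and channel, and those over 0.5 in size on both arrays for each array. Each other list gave up to 4 genes with the largest ratios of 1 direction on both arrays, or 2 where none was called. Values beyond this rule were added after they were seen, and some genes that the rule names are not reported here. The members and lists were chosen with earlier results of these data known, and the roles were assigned after the values were seen.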

Additional observations from a re-analysis of the deposited data

How the results depend on the processing

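The test used is itself paired, since it takes the ratio of both fractions within an array. With the 4 channels as separate samples and the correlation within a spot modelled (estimated at -0.013), 1035 genes were called. Genes called numbered 256, against 385 with uncorrected signals, 562 at offset 16, 10107 with median centring over all probes, 4013 over the tested genes, 486 with the deposited processed signals and the value table alike, 623 after scaling between arrays, 0 without moderation (1507 at an unadjusted p under 0.05 in limma), 827 with an intensity trend, 134 with treat against 0.5, 30 with no filter and 156 with the dimmest probe. Of the 31 tested p53 genes, 23 were called with median centring over all probes, all lower, 7 over the tested genes (1 of them higher), and 1, Plk2, with scaling between arrays, an intensity trend or separate channels. At least 2-fold on both arrays were 9 genes with median centring over all probes, where 25.0% of all genes were, and 2 (Phlda3 and Plk2) over the tested genes (7.03% of all genes), after scaling (4.91%), and under either centring relative to the median of all genes. Their median was -0.85 with centring over all probes. With 1 array left out, which allows no test, 1 to 8 were at least 2-fold changed (6.35% of all genes without array 2 and 12.1% without array 1), and the median was -0.12 to 0.080.

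After a shift to the same all-gene median, 25 of the 31 kept their direction under the 14 alternatives with 2 arrays. The others were Ccng1 at 0.016 with an offset of 16 and 0.048 with processed signals or value table; Trp53 at 0.016 with either; Btg2 at -0.0063, Gadd45a at -0.081 and Xpc at -0.14 with either median centring; Mdm4 at 0.049 with its dimmest probe. Runx3 (-0.044 with processed signals or value table) and Acta2 (-0.22 with either centring) also turned. The cause was not tested. Without 1 array, the range was -0.32 to 0.57 for Gadd45a, -0.0099 to 0.14 for Xpc, -0.054 to 0.65 for Apaf1, -0.11 to 0.090 for Ccng1, -1.32 to 0.81 for Cdkn1a, -0.86 to 0.080 for Gadd45b, -0.34 to 0.10 for Sesn1, -0.12 to 0.022 for Trp53 and -0.043 to 0.15 for Runx3. Genes near the background, such as Trp63, are limited by signal.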
